A study of Mus musculus with 6 samples.

Results

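Glul, Slc1a2, Rhbg, Lgr5, Rnf43, Znrf3, Axin2, Tbx3, Rgn and Lect2 are genes that hepatocytes around the central vein use under Wnt signals. All probe sets whose only gene symbol in the array annotation is one of these 10 genes were taken, which gave 22 of the 45037 probe sets in the table and 10 of the 18193 genes that the array names singly. Cytochrome P450 genes were not among them. The rule for a probe set used its gene symbol and no measured value, although the 10 genes were proposed with earlier results of these data known, and 1 further Slc1a2 probe set that also names another gene was left out. RNA came from whole liver of 6 male FRG mice, 12 weeks old, with 1 Affymetrix Mouse 430 2.0 array per mouse. All of these mice lacked Fah, Rag2 and Il2rg on a C57Bl/6J background (Fah-/-, Rag2-/-, Il2rg-/-) and ate chow low in tyrosine and phenylalanine. The 3 FRG+NTBC mice drank water with 16 mg/L NTBC and dextrose throughout, whereas the 3 FRG-7dNTBC mice lost the drug at 11 weeks of age and were sampled after 7 days without it. NTBC, or nitisinone, blocks Hpd, an early enzyme of tyrosine breakdown, and so keeps toxic products from building up in a liver without Fah, the model of hereditary tyrosinemia type 1. Loss of Rag2 and Il2rg leaves these mice without mature T, B and NK cells, and neither an animal with lymphocytes nor one with Fah was on the arrays.

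Hepatocytes differ along the path of blood from the portal vein to the central vein. Endothelial cells of the central vein release Wnt ligands and R-spondin 3, which stabilize β-catenin in the neighboring hepatocytes, and β-catenin with TCF/LEF factors then turns on a pericentral program for glutamine synthesis, bile acid synthesis and drug metabolism. R-spondins act through Lgr4 and Lgr5, which hold back the ubiquitin ligases Rnf43 and Znrf3 from removing Frizzled receptors, and Axin2, Rnf43 and Znrf3 are themselves targets that damp the signal.

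RefSeq promoter windows of GRCm38.p6, from 250 bases before to 50 bases after an annotated start, were at hand for 5 of the 10 genes, as 6 windows. They were searched for CTTTGAT, a core of the TCF/LEF motif, on both strands (ATCAAAG on the other). It was found in 2 of the 6 windows, at Slc1a2 and Lect2, and in 3.73% of 32851 windows of the same length. The shorter CTTTGA, part of the longer motif, was in the same 2 windows and in 16.0% of all windows. The windows of both genes are shown because they hold the motif while the intensities of the genes moved in opposite directions, and that of Glul, the best known gene of this program, because it holds none. Glul lies on chr1:153899679-153899978 (plus strand), at the 5′ end of the gene. The Slc1a2 window, chr2:102706188-102706487 (plus strand), belongs to a transcript that starts 48199 bases inside the gene, and the motif begins 207 bases before that start, on the opposite strand. The Lect2 window, chr13:56548489-56548788 (minus strand), belongs to a transcript that starts 21 bases inside the gene, with the motif 32 bases before that start, also on the opposite strand. Sequences run 5′ to 3′ along the gene, and capitals mark the motif.
Glul: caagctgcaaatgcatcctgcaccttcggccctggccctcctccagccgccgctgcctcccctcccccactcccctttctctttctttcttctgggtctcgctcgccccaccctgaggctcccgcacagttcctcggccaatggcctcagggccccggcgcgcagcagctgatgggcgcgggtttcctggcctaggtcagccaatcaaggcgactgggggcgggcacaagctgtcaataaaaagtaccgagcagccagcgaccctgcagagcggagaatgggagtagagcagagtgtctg
Slc1a2: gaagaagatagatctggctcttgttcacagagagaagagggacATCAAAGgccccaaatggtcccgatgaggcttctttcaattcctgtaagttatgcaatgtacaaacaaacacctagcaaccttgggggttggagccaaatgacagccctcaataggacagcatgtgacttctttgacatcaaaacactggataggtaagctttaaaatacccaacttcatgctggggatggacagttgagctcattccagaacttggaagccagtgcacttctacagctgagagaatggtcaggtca
Lect2: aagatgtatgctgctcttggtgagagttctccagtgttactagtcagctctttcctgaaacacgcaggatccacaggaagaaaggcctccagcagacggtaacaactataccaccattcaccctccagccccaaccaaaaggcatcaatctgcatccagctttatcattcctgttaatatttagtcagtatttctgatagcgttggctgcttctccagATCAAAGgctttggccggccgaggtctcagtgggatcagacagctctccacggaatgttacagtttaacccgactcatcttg
A match of letters is a description of the window, and binding was not measured.

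The deposited intensities, on a linear scale, had medians of 35.3 to 36.5 in FRG+NTBC arrays and 33.1 to 34.3 in FRG-7dNTBC arrays. FRG-7dNTBC replicates 2 and 3 lay farthest apart within a group, at -46.5 and 49.5 on a principal component that held 10.7% of the variance, and leaving out each mouse is therefore given with the results. Albumin, which marks hepatocytes, had intensities of 25780 ± 728 and 27310 ± 664 (SD, n = 3 mice per group), and none of 4 measured hepatocyte markers passed the test at its brightest probe set (limma, unadjusted or adjusted). Albumin was near the highest intensity of the table, 29532, where a change is hard to see. The same holds for the markers Ttr (means 26130 and 26030) and Apoa1 (23560 and 22250). The deleted Rag2 read 20.1 ± 3.21 and 20.1 ± 1.86, a level used below to mark dim probe sets. Of 5 measured T, B and NK cell markers, 0 passed limma's test with or without adjustment at the brightest probe set of each, 1 of 5 Cd8a probe sets, a dimmer one, was called lower, and their summed intensity was 191.9 to 212.9 in FRG+NTBC and 185.8 to 197.8 in FRG-7dNTBC. Of all genes, 12.7% were lower and 17.4% higher at an adjusted p under 0.05 (limma), so 0 calls among 4 or 5 markers say little. Fah signal was lower after withdrawal (log2 fold change -1.07), and because both groups carry the knockout it does not check the labels.

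The 10 genes did not move as 1 block after withdrawal of NTBC. At the brightest probe set of each gene by mean log2 intensity, Glul, Slc1a2, Rnf43 and Rgn fell, Znrf3 and Lect2 rose, and Axin2, Lgr5, Tbx3 and Rhbg did not pass the test. Calls were made with limma at an adjusted p under 0.05, with Benjamini-Hochberg adjustment over all probe sets. Among all 18193 genes, 12.7% were called lower and 17.4% higher by the same rule. Over the 22 probe sets, 8 were called lower, where 13.9% of all probe sets were, and 2 higher, where 14.0% were. With a fold of at least 2 as well, 4 were lower, against 5.12% of all probe sets, and 1 higher, against 7.61%. The groups did not overlap at 9 probe sets that were lower (25.5% of all probe sets) and at 4 that were higher (18.6%). The median log2 fold change was -0.29 over the 22 probe sets against -0.08 over the whole table, and -0.08 over the 10 genes against -0.05 over all genes. In whole liver, fewer cells of a type and less RNA per cell cannot be told apart.

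**Figure D1:**
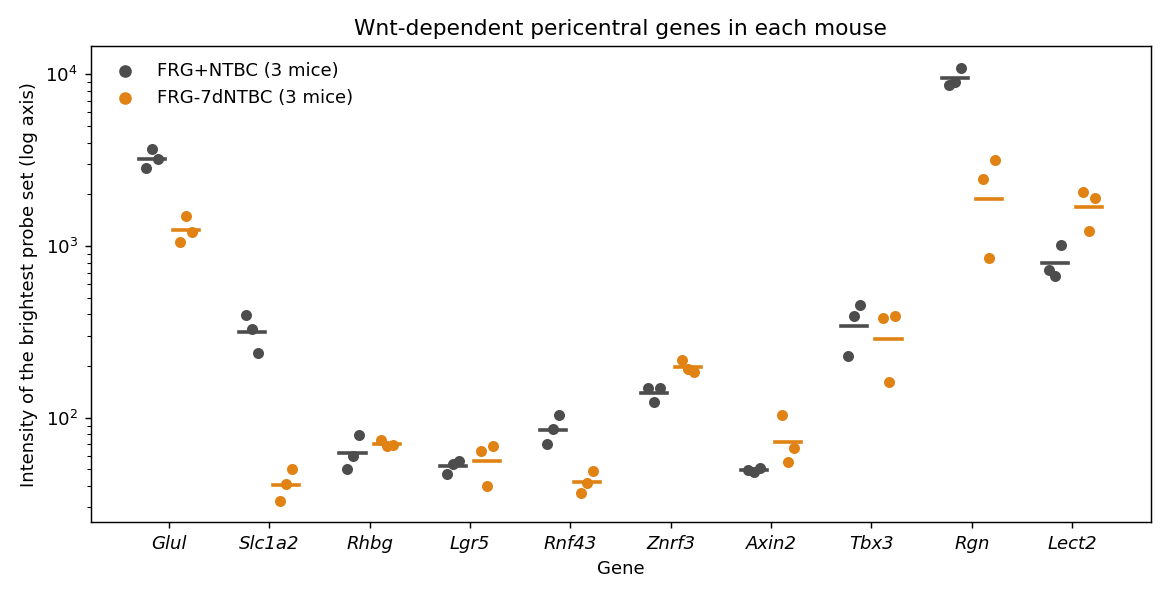
Intensity of the brightest probe set of each gene in each mouse, on a log axis without units, with gray points for the 3 FRG+NTBC and orange points for the 3 FRG-7dNTBC mice and a bar at the mean of the log2 values. Slc1a2, Rgn, Glul and Rnf43 lie lower without overlap in FRG-7dNTBC, Lect2, Znrf3 and Axin2 higher, and Rhbg, Lgr5 and Tbx3 overlap. Heights of different genes are not comparable, since probe sets differ in brightness.

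Among the genes of nitrogen handling, the glutamate transporter and glutamine synthetase fell while the ammonium transporter did not pass the test. Slc1a2, the glutamate transporter GLT-1, gave intensities of 398.9, 330.8 and 238.9 in the 3 FRG+NTBC livers and of 32.9, 41.07 and 50.21 in the 3 FRG-7dNTBC livers. Every FRG-7dNTBC value lay far under the lowest FRG+NTBC value. The log2 difference was -2.95 (SE 0.23, adjusted p = 0.000117, limma), the largest fall of the 10 genes, and 0.309% of all probe sets fell further. Glul, which joins ammonia to glutamate in the last rows of hepatocytes, gave 2837, 3666 and 3236 on NTBC and 1053, 1499 and 1201 after withdrawal. Its groups did not overlap either, and it fell 2.61-fold (log2 difference -1.38, SE 0.17, adjusted p = 0.000807, limma). Leaving out any mouse kept Slc1a2 between -3.16 and -2.79 and Glul between -1.52 and -1.27. Rhbg, a channel for ammonium, gave 50.56, 59.71 and 79.34 on NTBC and 74.03, 68.59 and 69.07 after withdrawal. The FRG-7dNTBC values lay inside the range of FRG+NTBC, and Rhbg was not called (log2 difference 0.18, adjusted p = 0.477, limma). Its 95% interval, -0.22 to 0.59, does not include the fall seen at the brightest Glul probe set. The interval is of array signal at 1 probe set, far dimmer than that of Glul, and dim probe sets have compressed fold changes.

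Other probe sets of Slc1a2 and Glul gave smaller differences. The Slc1a2 probe set 1439940_at gave 24.25, 22.78 and 20.11 against 13.64, 11.55 and 12.64 (log2 difference -0.83, adjusted p = 0.00273, limma). At 1459014_at the values were 27.47, 23.75 and 25.11 against 13.45, 17.88 and 15.78 (log2 difference -0.70, adjusted p = 0.00849, limma). Both fell, and both are close to the Rag2 level. The remaining Slc1a2 probe sets, 1433094_at and 1451627_a_at, had log2 fold changes of -0.43 and -0.33 and were not called (adjusted p = 0.0833 and 0.248, limma). The dimmer Glul probe set 1426235_a_at gave 302.3, 298.2 and 274.4 on NTBC against 296.1, 352.1 and 112.2 after withdrawal. It was not called (log2 fold change -0.36, SE 0.38, adjusted p = 0.523, limma), and only FRG-7dNTBC replicate 3 lay under the FRG+NTBC values. As the mean of all its probe sets, Slc1a2 had a log2 difference of -1.05 and Glul of -0.87 (adjusted p = 0.00043 and 0.022, limma).

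The receptor Lgr5 and the feedback inhibitors differed from each other. Lgr5, the R-spondin receptor that marks pericentral hepatocytes, gave 47.18, 53.45 and 56.1 on NTBC and 64, 39.95 and 68.59 after withdrawal. The FRG-7dNTBC values lay on both sides of the FRG+NTBC values, and Lgr5 was not called (log2 fold change 0.10, 95% interval -0.38 to 0.59, adjusted p = 0.753, limma). Its other probe set was at or under the Rag2 level in both groups. Rnf43, a ubiquitin ligase that removes Frizzled receptors, gave 70.03, 85.63 and 103.2 on NTBC and 36.25, 41.93 and 49.18 after withdrawal. The groups did not overlap, and Rnf43 fell 2.02-fold, or by -1.02 as a log2 difference (SE 0.18, adjusted p = 0.00453, limma). Znrf3, the related ligase, gave 148.1, 123.6 and 149.1 on NTBC and 216.8, 192.7 and 183.6 after withdrawal. It rose 1.41-fold without overlap, by 0.50 on the log2 scale (SE 0.14, adjusted p = 0.0282, limma). Its second probe set, 1437646_at, gave 45.57, 28.64 and 37.01 against 45.89, 48.5 and 49.52, which also did not overlap but was not called (log2 fold change 0.40, adjusted p = 0.135, limma). Without moderation of the variances the adjusted p was 0.0521 for Rnf43 and 0.0657 for Znrf3, and the Znrf3 call was also lost when FRG+NTBC replicate 2 or FRG-7dNTBC replicate 1 was left out (adjusted p = 0.103 each, limma) or FRG-7dNTBC replicate 2 (0.052). It was lost as well after scaling to the 75th percentile (0.0764), quantile normalization (0.1) and with an intensity trend (0.0512).

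Axin2, the scaffold of the β-catenin destruction complex that is often read as a measure of Wnt activity, gave 49.52, 48.17 and 50.91 on NTBC and 103.2, 54.95 and 66.26 after withdrawal. All 3 FRG-7dNTBC values lay above the FRG+NTBC values, and they spread far more widely, with an SD of 25.3 against 1.37. The log2 fold change of 0.54 (SE 0.22, 95% interval 0.04 to 1.05) did not pass the test over all probe sets (adjusted p = 0.106, limma). Without FRG-7dNTBC replicate 2 the log2 fold change was 0.74 and passed (adjusted p = 0.0302, limma), and without FRG-7dNTBC replicate 1 it was 0.28 (adjusted p = 0.239, limma). The other Axin2 probe set was at or under the Rag2 level in both groups and had a log2 fold change of -0.08.

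Tbx3, a T-box repressor of transcription, has 5 probe sets, of which 2 were called lower and 0 higher (0 higher also at an unadjusted p under 0.05), and these were not the bright ones. The brightest, 1437479_x_at, gave 229.1, 393.4 and 451.9 on NTBC and 380, 162 and 390.7 after withdrawal. The next, 1448029_at, gave 230.7, 300.2 and 374.8 on NTBC and 335.5, 184.8 and 421.7 after withdrawal. At both, the groups overlapped, FRG-7dNTBC replicate 2 was the lowest of all 6 mice, and the log2 fold changes were -0.25 and 0.00 (adjusted p = 0.66 and 0.995, limma). At 1445757_at the intensities were 27.1, 29.04 and 29.24 against 17.03, 18.38 and 21.26, which fell by 0.60 on the log2 scale (SE 0.13, adjusted p = 0.0111, limma) to a mean under the Rag2 level. The other probe set called lower, 1444594_at, lay under the Rag2 level in both groups, and its call was lost when any of the 6 mice was left out. Where in the transcript each probe set lies was not analysed here.

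Rgn and Lect2, genes for a cytosolic and a secreted hepatocyte protein, moved in opposite directions. Rgn, which encodes the calcium-binding gluconolactonase regucalcin, gave 8719, 9090 and 10960 on NTBC and 2452, 855.1 and 3191 after withdrawal. All FRG-7dNTBC values lay under all FRG+NTBC values, with FRG-7dNTBC replicate 2 the lowest. Rgn fell 5.06-fold (log2 difference -2.34, SE 0.43, adjusted p = 0.00516, limma), and 0.622% of all probe sets fell further. Lect2, a cytokine secreted by hepatocytes and a known β-catenin target, gave 729.1, 670.9 and 1017 on NTBC and 2062, 1226 and 1911 after withdrawal. It rose without overlap, 2.13-fold (log2 difference 1.09, SE 0.24, adjusted p = 0.0107, limma). Without moderation neither passed (adjusted p = 0.0787 for Rgn and 0.0901 for Lect2), and the Lect2 call was also lost without FRG+NTBC replicate 2 (adjusted p = 0.0504, limma).

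**Figure D2:**
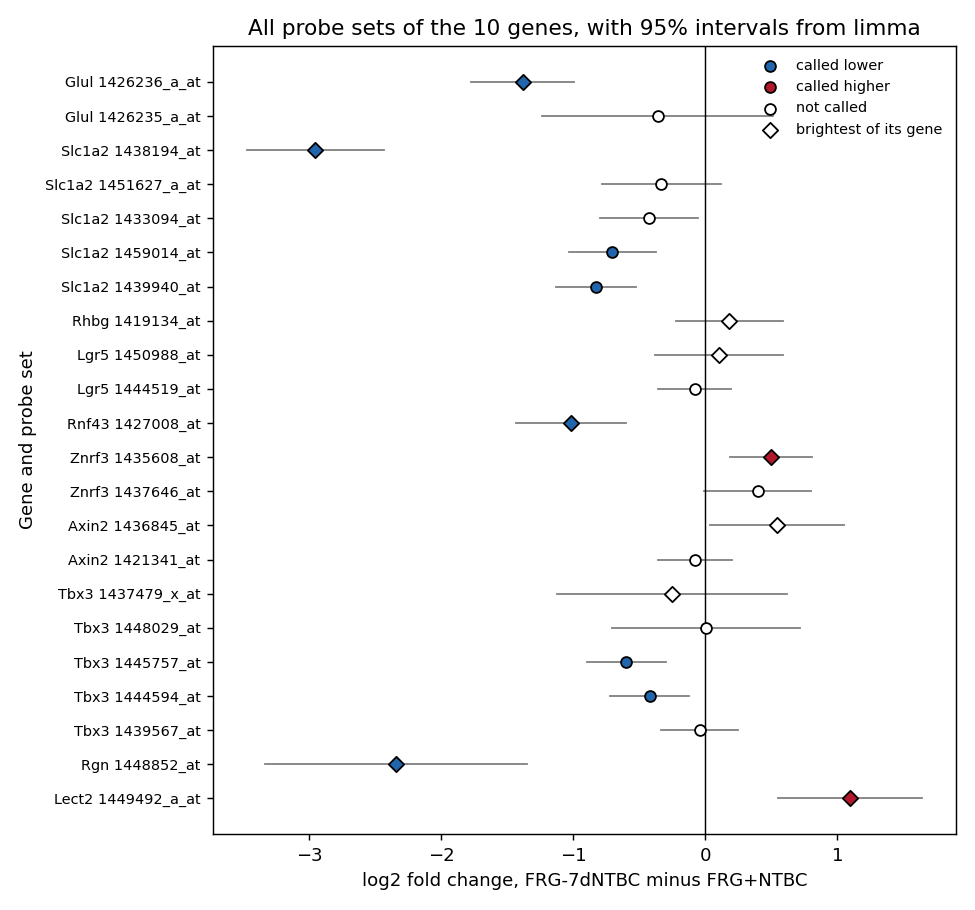
Log2 difference of means (FRG-7dNTBC minus FRG+NTBC) of all 22 probe sets of the 10 genes, with 95% intervals from limma, diamonds for the brightest probe set of a gene and fill for the call at an adjusted p under 0.05. The 8 called lower belong to Glul, Slc1a2, Rnf43, Tbx3 and Rgn, and the 2 called higher to Znrf3 and Lect2.

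Some mice stood at the end of their group's range at many of the 10 genes. FRG-7dNTBC replicate 2 was the lowest of its group at 6 of the 10 genes (Axin2, Lgr5, Tbx3, Rhbg, Rgn and Lect2) and the highest at Glul. Over all genes it was the lowest of its group at 37.4%. FRG+NTBC replicate 3 was the highest of its group at 8 of the 10 genes, all but Glul and Slc1a2, against 33.3% of all genes, and FRG+NTBC replicate 1 the lowest at 6, against 35.5%. These are counts over genes measured on the same arrays, so they are not independent of each other. Without FRG-7dNTBC replicate 2 the log2 fold change of Rgn was -1.77 and that of Lect2 1.33, and both were still called (adjusted p = 0.00043 and 0.00242, limma).

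Within a functional group, the genes were compared with each other by the difference of their log2 fold changes, over 7 pairs. With 3 mice against 3, an exact two-sided permutation test cannot go below p = 0.1, which is 0.117 after adjustment over the 7 pairs, so no pair can pass 0.05 by this test. At the brightest probe sets Glul fell less than Slc1a2 by 1.57 (SE 0.33), an order that depends on the probe set, since the other 4 of Slc1a2 had smaller differences than Glul. Both lay under Rhbg, with differences of -1.57 (SE 0.25) for Glul and -3.14 (SE 0.46) for Slc1a2. Rnf43 differed from Znrf3 by -1.51 (SE 0.27) and from Axin2 by -1.56 (SE 0.40), and Rgn from Lect2 by -3.43 (SE 0.38). In each of these 6 pairs the log2 difference between the genes did not overlap between the groups of mice. With 3 against 3 this is the same fact as the smallest possible exact permutation p. Single genes did not overlap at 23.4% (lower) and 22.8% (higher) of all genes, and the share over other pairs of genes was not counted. Znrf3 and Axin2 differed by -0.05 (SE 0.23) with overlapping mice (exact permutation p = 0.8, adjusted 0.8).

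The pathway that drives these genes was measured through 84 of 86 further genes, each at its brightest probe set. Of these, 12 were called lower and 6 higher, 66 were not called, and the median log2 fold change was -0.12 against -0.05 over all genes. The signal of 15 of the 84 was at or under the Rag2 level in both groups. Since 12.7% of all genes were called lower and 17.4% higher, the number called higher was under the background share. When the arrays were scaled to one 75th percentile, which shifted the median of the whole table by -0.13, 23 were called lower and 5 higher. The shares of all genes called under that scaling were not counted, so 23 and 5 cannot be set against 12.7% and 17.4%. With a fold of at least 2 as well, 2 were lower and 3 higher, where 4.95% and 8.94% of all genes were. The groups of mice did not overlap at 28 pathway genes that were lower and 10 that were higher, against 23.4% and 22.8% of all genes.

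Among ligands and their secretion, 2 of 25 genes were called lower and 1 higher, where 12.7% and 17.4% of all genes were. Rspo3, the R-spondin of the central vein, gave 24.42, 20.82 and 18.64 on NTBC and 44.32, 38.32 and 58.08 after withdrawal. It rose by 1.13 on the log2 scale without overlap (SE 0.18, adjusted p = 0.00297, limma), from a signal near the Rag2 level, at 1 of its 2 probe sets. The other, 1443187_at, was dimmer and was not called (log2 fold change -0.34). Porcn, the enzyme that attaches the lipid that Wnt proteins need, fell by 0.86 (adjusted p = 0.00384, limma). Of 19 Wnt genes, 1, the dim Wnt9a, was called lower (log2 fold change -0.47, adjusted p = 0.0226, limma) and 0 higher (0 higher also at an unadjusted p under 0.05), with log2 fold changes from -0.48 to 0.12. The central vein ligands Wnt2 and Wnt9b had log2 fold changes of -0.39 and -0.06 (adjusted p = 0.171 and 0.776, limma). Wnt9b, with means of 24.5 and 23.7, was close to the Rag2 level, where a fall is hard to see. In both groups, 7 of the 25 genes were at or under that level. Wls, which carries Wnt proteins to the cell surface, was not called at its brightest probe set (0.25, adjusted p = 0.504, limma) but was called higher at 2 of its 4.

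Of 17 receptor genes, 2 were called lower and 1 higher, where 12.7% and 17.4% of all genes were. Fzd4 gave 1168, 820.3 and 831.8 on NTBC and 401.7, 235.6 and 427.6 after withdrawal, and fell by 1.43 on the log2 scale (SE 0.25, adjusted p = 0.0041, limma) at 1 of 3 probe sets. Fzd8 fell by 0.83 on that scale at 1 of 2 probe sets (adjusted p = 0.00213, limma), whereas Fzd5 rose by 0.82 at 1 of 2 (adjusted p = 0.00935, limma). These were the called members of 10 Frizzled genes, which ranged from -1.43 to 0.82. The co-receptor Lrp6 and the R-spondin receptor Lgr4 were not called (0.30 and 0.11, adjusted p = 0.352 and 0.688, limma).

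In β-catenin transduction and transcription, 4 of 22 genes were called lower and 2 higher, where 12.7% and 17.4% of all genes were. Ctnnb1, the gene of β-catenin itself, gave 1218, 1629 and 1938 on NTBC and 2684, 3984 and 2702 after withdrawal. The groups did not overlap, and Ctnnb1 rose by 0.97 on the log2 scale (SE 0.22, adjusted p = 0.0133, limma), with all 3 probe sets called higher. Apc, part of the complex that marks β-catenin for destruction, gave 144, 147 and 199.5 against 404.5, 512 and 430.5. It rose by 1.47 (SE 0.17, adjusted p = 0.000628, limma) at 1 of 4 probe sets, the brightest over both groups. On NTBC, 1420957_at and 1435543_at were brighter (means 195.1 and 192.7 against 163.5). They had log2 fold changes of -0.34 and -0.35, 1450056_at had 1.05, and none of these was called. Amer1, a partner of Apc, the adaptor Dvl1 and the co-activator Bcl9l fell, with log2 differences of -0.89, -0.77 and -0.72 (adjusted p = 0.00656, 0.0413 and 0.0162, limma). Amer1 was called lower at 2 of 2 probe sets, Dvl1 at 1 of 2 and Bcl9l at 1 of 3. Gsk3b, the kinase of the destruction complex, fell by 0.45 at its brightest probe set (adjusted p = 0.0494, limma), while of its 6 probe sets 2 were called lower and 1, 1454958_at, higher (0.53, adjusted p = 0.0291, limma). Tcf7l2, the main TCF factor of liver, had a log2 fold change of -0.68 and was not called (adjusted p = 0.092, limma).

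Of 15 antagonists, 3 were called lower and 1 higher, where 12.7% and 17.4% of all genes were. Notum, the secreted lipase that inactivates Wnt proteins, gave 166.6, 219.8 and 187.4 on NTBC and 82.71, 74.03 and 57.28 after withdrawal. It fell without overlap by 1.43 on the log2 scale (SE 0.18, adjusted p = 0.000822, limma). Nkd2, which binds Dvl proteins, and the dim Dkk4, an inhibitor of the Lrp co-receptors, fell, with log2 differences of -0.55 and -0.45 (adjusted p = 0.0167 and 0.0496, limma). Frzb, which binds Wnt proteins, rose by 0.74 (adjusted p = 0.0417, limma) from a mean of 14.4, under the Rag2 level. Nkd2 was called at 1 of its 4 probe sets and Frzb at 1 of 2. Among 5 targets shared by many tissues, Tnfrsf19 fell 2-fold and Myc, which many other signals also raise, rose by 1.71 on the log2 scale (adjusted p = 0.00796 and 0.00493, limma), and the other 3 were not called. Tnfrsf19 was called at 1 of its 3 probe sets, with log2 fold changes of -0.19 and -0.40 at the others. Of the 18 pathway genes called, 11 were called without any 1 of the mice, 7 without moderation and 5 under both conditions, which were Rspo3, Porcn, Fzd8, Apc and Notum. These are calls at the brightest probe set, and Rspo3, Fzd8 and Apc had further probe sets that were not called.

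**Figure D3:**
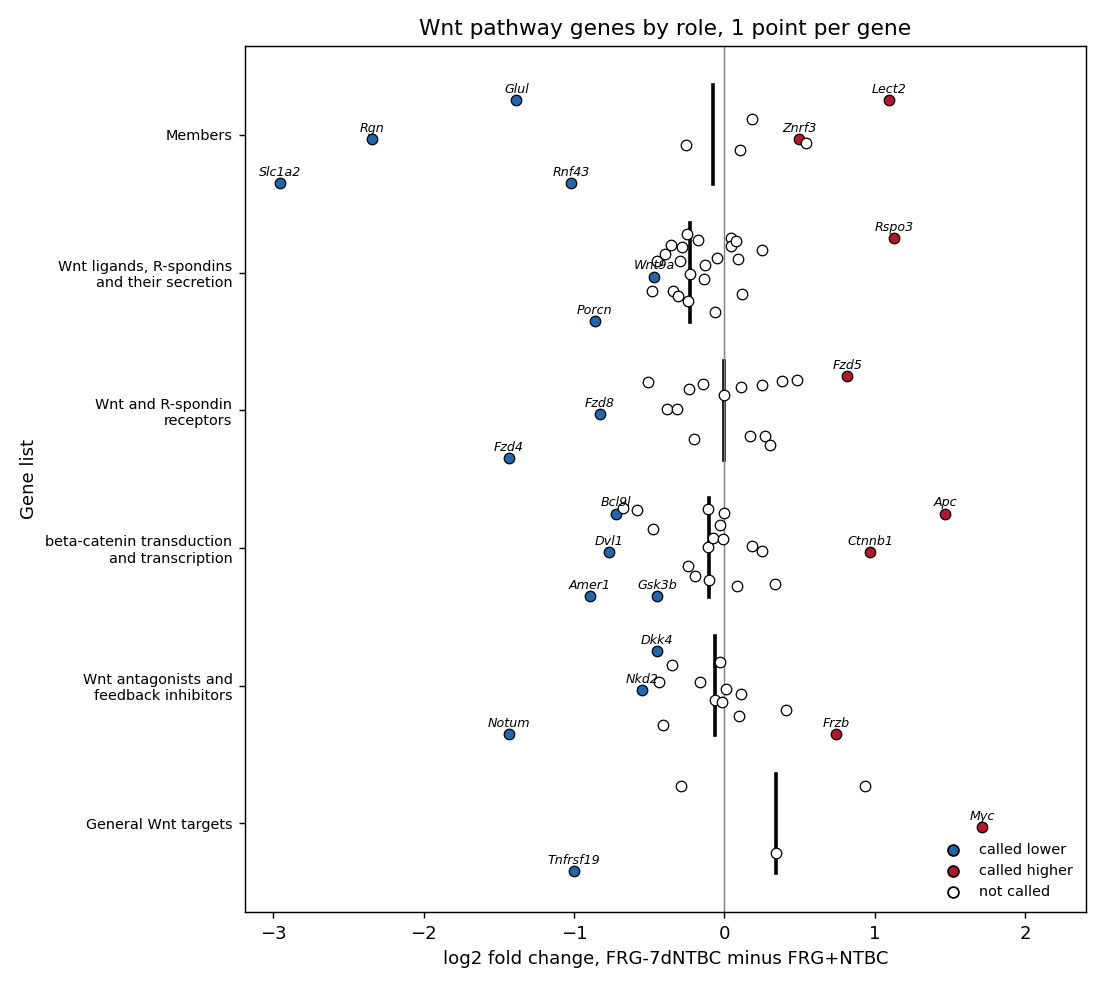
Log2 difference of means (FRG-7dNTBC minus FRG+NTBC) of the 10 genes and of 84 Wnt pathway genes by role, 1 point per gene at its brightest probe set, with bars at the medians and fill for the call at an adjusted p under 0.05. Open points, the genes not called, make up 66 of the 84, and called genes lie on both sides of 0 in every row.

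Other genes of the pericentral zone moved in both directions. Outside the P450 genes, 3 of 7 measured were called lower and 1 higher, with a median log2 fold change of -0.97. Of all genes, 12.7% were called lower and 17.4% higher. Gulo, an enzyme of vitamin C synthesis, Lhpp and the vasopressin receptor Avpr1a fell, with log2 differences of -1.51, -1.15 and -0.97 (adjusted p = 0.00496, 0.0192 and 0.00309, limma), while Slc13a3, a dicarboxylate transporter, rose by 1.26 (adjusted p = 0.000932, limma). Slc13a3 was called higher at 2 of its 4 probe sets. Oat, which is found beside glutamine synthetase, gave 388, 242.2 and 445.7 on NTBC and 282.1, 421.7 and 123.6 after withdrawal and was not called (log2 fold change -0.50, adjusted p = 0.424, limma). Among the pericentral P450 genes, Cyp7a1, the rate-limiting enzyme of bile acid synthesis, and Cyp2e1 fell, with log2 differences of -4.34 and -1.17, while Cyp1a2 was not called at 0.66 (adjusted p = 3.1e-05, 0.0323 and 0.0899, limma). The calls of Lhpp and Cyp2e1 were each lost in 3 or more of the fits that left out 1 mouse.

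Several genes of the opposite, periportal zone also fell. Of 11 measured, 5 were called lower and 3 higher, or 8 and 2 after scaling to the 75th percentile, with a median log2 fold change of -1.04. Without that scaling, 12.7% of all genes were called lower and 17.4% higher, and the shares with it were not counted. Hal and Uroc1, enzymes of histidine breakdown, Pck1, of glucose synthesis, and Ass1, of the urea cycle, fell, with log2 differences of -2.71, -2.41, -2.48 and -2.38 (adjusted p = 0.00022, 0.000794, 0.00476 and 0.00127, limma). Ass1 was read at 1 probe set that was dim on NTBC as well, with a mean of 115.1 where Cps1 had 9633. Its mean after withdrawal, 21.2, was at the Rag2 level, so the size of its fall is uncertain. Pck1 was called lower at 1 of its 3 probe sets. Cps1, the entry enzyme of the urea cycle, fell by 0.73, and Cdh1, the gene of E-cadherin, rose by 1.26 (adjusted p = 0.0103 and 0.00395, limma). Without moderation Cps1, Cdh1 and Pck1 were not called (adjusted p = 0.0601, 0.0573 and 0.0767). A difference between the pericentral and the periportal genes was not tested.

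**Figure D4:**
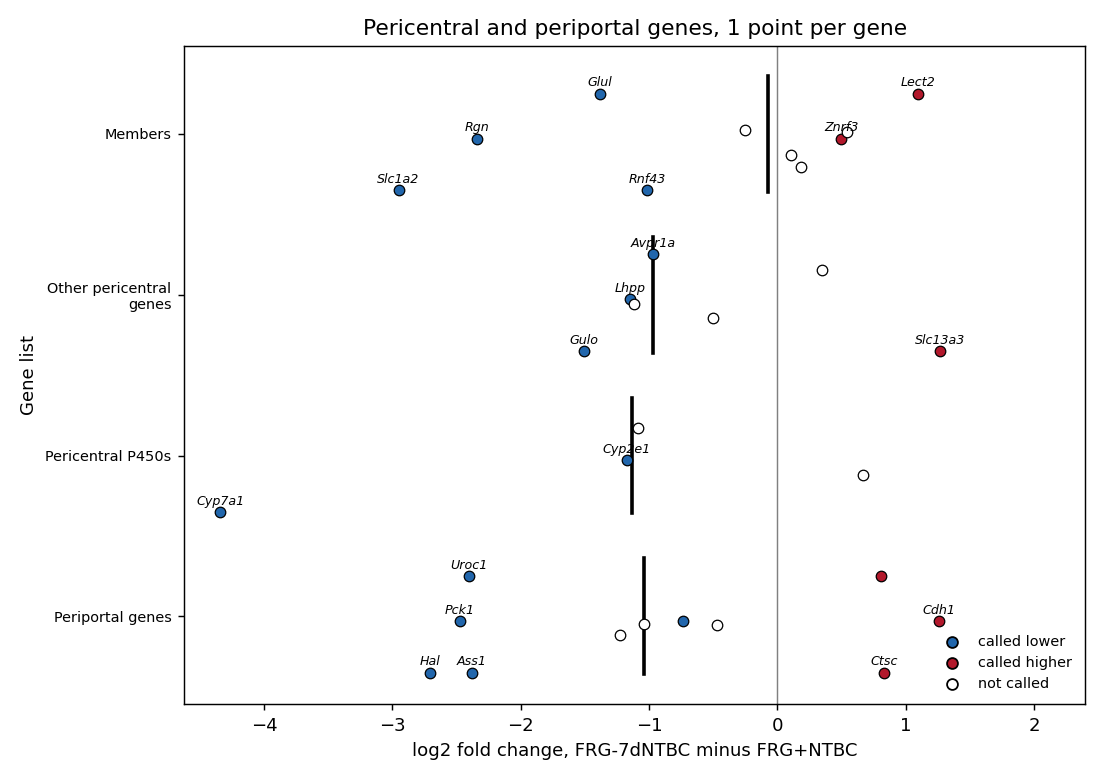
Log2 difference of means (FRG-7dNTBC minus FRG+NTBC) of the 10 genes, 7 other pericentral genes, 4 pericentral P450 genes and 11 periportal genes, 1 point per gene at its brightest probe set, with bars at the medians and fill for the call at an adjusted p under 0.05. The medians of the other 3 lists lie between -1.13 and -0.97, that of the 10 genes at -0.08.

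Markers of other liver cells moved in the same arrays. By the rule used here, 17.4% of all genes were called higher and 12.7% lower, the background for each marker list. Of 8 markers of sinusoidal and central vein endothelial cells, which supply R-spondin and Wnt ligands, 4 were called higher and 0 lower (0 lower also at an unadjusted p under 0.05, limma). Thbd, found on central vein endothelium, gave 25.11, 27.67 and 32.9 against 105.4, 90.51 and 87.43. The others called higher were Lyve1, Kit and Clec4g, with log2 fold changes of 1.78, 0.92 and 0.74. Pecam1, Cdh5, Kdr and Stab2 were not called, with log2 fold changes of 0.48, 0.66, -0.02 and -0.01. The summed intensity of the 8 was 1159 to 1717 on NTBC and 1894 to 2332 after withdrawal. Among macrophage markers 3 of 6 were called higher, with summed intensities of 1559 to 2153 and 1857 to 4537, and among stellate cell markers 1 of 6, with 2116 to 3694 and 2774 to 4503. Such sums follow the brightest genes most. These were Csf1r (means 1061 and 1293) for macrophages and Dcn (2031 and 2366) for stellate cells, neither of which was called. Among 5 markers of cholangiocytes and progenitor cells 0 were called by limma at the brightest probe set, with 1 lower and 1 higher at an unadjusted p under 0.05 and 1 of 2 Epcam probe sets, the dimmer, called higher, and sums of 188.5 to 221.4 and 156.4 to 234.4. No endothelial, macrophage or stellate cell marker was at or under the Rag2 level in both groups, and 1 of the cholangiocyte and progenitor list was. Their part in the values of Rspo3, the Wnt genes and the 10 pericentral genes was not tested.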

How the data were processed

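Whole-liver RNA of 3 FRG+NTBC and 3 FRG-7dNTBC mice was amplified, labeled with biotin and measured on Affymetrix expression arrays for the mouse genome. The deposited values are intensity values on a linear scale that the authors made by Robust Multiarray Analysis. Per the submitters' processing notes the Transcriptome Analysis Console was used. Multiarray averaging of this kind subtracts background, sets the arrays to one distribution and sums the probes of a set. A change common to most genes is thereby largely removed, and dim probe sets have compressed fold changes. The deposited arrays did not share a single distribution, since their medians were 35.3 to 36.5 in FRG+NTBC and 33.1 to 34.3 in FRG-7dNTBC. Values ranged from 3.84 to 29532.

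The log2 of the deposited values was compared with limma (version 3.58.1 under R 4.3.3, lmFit followed by eBayes, no covariates), with Benjamini-Hochberg adjustment over all 45037 probe sets and a call at an adjusted p under 0.05. The code was tested on simulated data. Probe sets were named by the array annotation, in which 34945 have 1 gene symbol, 932 several and 9160 none, and 34741 of the former matched the RefSeq table of GRCm38.p6 by gene identifier. The 10 genes and the lists were chosen with earlier results of these data known. The text names all 10 genes at every probe set, up to 4 called genes with the largest change per other list, and a fixed set of pathway and zonation genes. Gsk3b, Wls, the cell markers other than albumin and the further probe sets were named after their values were seen. Listed genes without a value, among them Tcf7, Kremen2, Sds and Gls2, were not analysed here. The mice are separate animals, and the precision is limited by 3 arrays per group. Alternative settings were a common 75th percentile for all arrays, quantile normalization, leaving out dim or multi-transcript probe sets, robust moderation with a trend on intensity, unmoderated variances, weighted arrays, a replicate block, leaving out each mouse, the mean of a gene's probe sets, and a 2-fold threshold. Leaving out probe sets at the Rag2 level was chosen after seeing the data.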

Additional observations from a re-analysis of the deposited data

How the results depend on the processing

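The precision is that of 3 arrays per group, and many calls rest on the spread that limma borrows across probe sets. No call of the 22 probe sets of the 10 genes changed direction under any alternative that was run, and over these probe sets and alternatives 280 values kept their side of the threshold, 20 lost a call and 5 gained one. The calls of Glul and of the brightest Slc1a2 probe set held in every alternative that kept them. Leaving out multi-transcript probe sets removed both Glul probe sets and that of Lect2. It also removed the brightest Tbx3 probe set, 1437479_x_at, and Slc1a2 1451627_a_at, neither of which was called. The causes of these shifts were not tested beyond what each alternative leaves out. Shares of all genes and of all probe sets called were counted only in the main setting and with the 2-fold threshold. The other counts below have no such background.

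Of the probe sets of the 10 genes, 8 were called lower and 2 higher. The counts were 9 and 1 after scaling to one 75th percentile, 7 and 1 after quantile normalization, 4 and 2 with dim probe sets left out, 8 and 1 with an intensity trend, 5 and 0 without moderation, 7 and 1 without multi-transcript probe sets, 4 and 1 with a 2-fold threshold, and 7 and 2 without probe sets at the Rag2 level. Without each mouse in turn, 7 were called lower each time and 0 to 3 higher, with 0 higher without FRG+NTBC replicate 2, 1 without FRG-7dNTBC replicate 1 and 3 without FRG+NTBC replicate 1. Of the 84 Wnt pathway genes, 12 were called lower and 6 higher, against 23 and 5 (82.1% against 66.7% of calls lower) after scaling to one 75th percentile, 6 and 2 without moderation, 2 and 3 with a 2-fold threshold, 7 to 15 and 5 to 7 without each mouse (7 lower without FRG-7dNTBC replicate 1), and 17 and 9 with array weights. Of the other pericentral genes with the P450 genes, 5 were called lower and 1 higher, against 2 and 1 without moderation, 7 and 2 with array weights, 3 to 7 and 1 to 2 without each mouse (3 lower without FRG+NTBC replicate 1 or 2 or FRG-7dNTBC replicate 1, and 2 higher without FRG-7dNTBC replicate 2), and 4 and 1 with a 2-fold threshold. Of the periportal genes, 5 were called lower and 3 higher, against 8 and 2 after scaling (80.0% against 62.5% lower), 7 and 2 after quantile normalization (77.8% lower), 3 and 1 without moderation, 4 and 1 with a 2-fold threshold, and 5 to 6 and 2 to 3 without each mouse.

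Deviations of mice with the same replicate number from their group means correlated at r = 0.106, 0.034 and -0.156 over all probe sets, so the numbers were not taken to pair the mice. With the replicate number as a block, 7 probe sets of the 10 genes were called lower and 2 higher, 11 and 8 of the Wnt pathway genes, 6 and 2 of the other pericentral genes and 7 and 2 of the periportal genes.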
